A study of Drosophila melanogaster with 6 samples.

Results

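The transcripts examined here are those of the intracellular part of the IMD (immune deficiency) pathway of Drosophila melanogaster, from the adaptor imd down to the NF-κB factor Rel and its regulators. Of the 10 genes listed (imd, Fadd, Dredd, Tak1, Tab2, Diap2, key, Rel, pirk and akirin), 9 had a probe set whose annotation named that gene alone, each with 1 probe set, out of 11982 genes named on the arrays. No probe set was annotated to Tak1, which was not analysed here. The cells were S2* cells, a variant of the haemocyte-derived S2 line. In the untreated group (3 samples) the cells were left without hormone, and in the 20E group (3 samples) they received 20-hydroxyecdysone, the steroid that triggers insect moulting and metamorphosis, at 1 µM for 24 h. Both groups were kept at 27 °C in Schneider's medium, to which 10% serum was added. The labels mention no bacterial or peptidoglycan stimulus in either group, and no solvent or time for the untreated cells, so effects of solvent or time in culture cannot be told apart from those of 20E.

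In this pathway, peptidoglycan of Gram-negative bacteria is sensed by receptors of the PGRP family, which recruit the death domain adaptor imd, the adaptor Fadd and the caspase Dredd. Ubiquitin chains added to the cleaved adaptor by the ligase Diap2 then draw in the Tab2-Tak1 kinase complex and the IκB kinase, whose regulatory subunit is key. Relish, the product of Rel, is phosphorylated and cleaved and enters the nucleus to switch on antimicrobial peptide genes. Most of these steps act on proteins already in the cell, so transcript levels do not measure the activity of the pathway. Ecdysone is known to make Drosophila blood-derived cell lines more responsive to immune stimuli, and the comparison of 20E with untreated cells asks here whether the transcripts of the core components differed.

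Each sample was hybridised to an Affymetrix array of its own that measured 18769 probe sets, and the values below are quantile-normalized intensities, with differences taken on the log2(normalized intensity + 16) scale. Whether replicates came from separate cultures is not stated in the labels, and the p-values may thus reflect technical spread alone. Two-sided limma tests with Benjamini-Hochberg adjustment called 957 of 18767 probe sets at an adjusted p under 0.05 (5.10%), of which 567 were higher and 390 lower in 20E cells. Without normalization between arrays the split was 723 to 307. On the second principal component of all probe sets, 20E replicate 2 lay at 69.9 and untreated replicate 1 at −47.8, while the other arrays lay between −23.7 and 21.0. Results are therefore also given without these arrays. Of 11 haemocyte markers, srp, crq, Col4a1 and vkg rose and Nplp2 fell. Their summed intensity was 7114 to 8826 in untreated and 6693 to 9987 in 20E samples, and without Nplp2, whose mean went from 5167 to 101, it was 2034 to 3401 and 6596 to 9879, with no overlap. The collagen gene vkg was at 701 or above on every array, whereas the blood cell antigen gene He lay between 0.925 and 23.0 and the phagocytosis receptor gene NimC1 between 10.8 and 37.0. Summed intensities of 4 fat body markers were 141 to 160 in untreated and 181 to 339 in 20E samples, and those of 3 neuron markers 115 to 188 and 97.7 to 170. Those of 3 muscle markers were 2140 to 6274 and 1923 to 4006, and those of 5 crystal cell and lamellocyte markers 258 to 631 and 334 to 487. Single genes weighed heavily in these sums. The fat body gene apolpp read 206 on 20E replicate 3 but 42.1 and 9.26 on the other 20E arrays, and the muscle gene Mlc2 read 1741 to 6085. In the crystal cell and lamellocyte list PPO3, a prophenoloxidase gene, rose from 26.4 ± 9.02 to 131 ± 27.8 (SD, n = 3 per group, limma adjusted p = 0.00978). The other 4 genes of that list did not pass by limma. PPO1, PPO2 and atilla differed by −0.36, −0.70 and −0.13, and lz by 0.06. The brightest of these, PPO2, averaged 369 in untreated and 213 in 20E samples. By the brightest probe set of each gene, which the sums also used, no fat body, neuron or muscle marker passed by limma. Unadjusted p was under 0.05 for 2, 0 and 0 of them, the 2 being apolpp, higher, and Fbp1, lower. Of all probe sets, 8.81% were higher and 8.40% lower at that level. Dimmer probe sets of brp (neuron) and sls (muscle) were also higher at that level (limma unadjusted p = 0.0212 and 0.0126). In bulk RNA, fewer cells of a type and less RNA per cell cannot be told apart, and the part of other cell types in the results was not tested.

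None of the 9 core transcripts passed the test in either direction by limma, against 5.10% of all probe sets, with 3.02% called higher and 2.08% called lower. With the dimmest 40% of probe sets left out, all 9 were kept and none passed, against 1073 of the 11262 probe sets tested. The differences of the members were nonetheless mostly on 1 side: 8 of the 9 were above 0, as were 47.7% of all probe sets, and the median difference was 0.40, beside −0.02 over all probe sets tested. The NF-κB gene Rel had the largest difference, 0.67 on the log2 scale, and was the 1 member with an unadjusted p under 0.05, a share near the 8.81% of all probe sets that were higher at that level. Under the alternatives that changed the processing or left out 1 array, the number of such members ran from 0 to 3. No member was lower at that level, against 8.40% of all probe sets. In Rel, key, Tab2 and Diap2 every 20E value at hand lay above every untreated value, 4 of 9 members against 11.0% of all probe sets. The 9 transcripts were read on the same arrays, so their shared direction does not count as 9 separate observations.

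**Figure D1:**
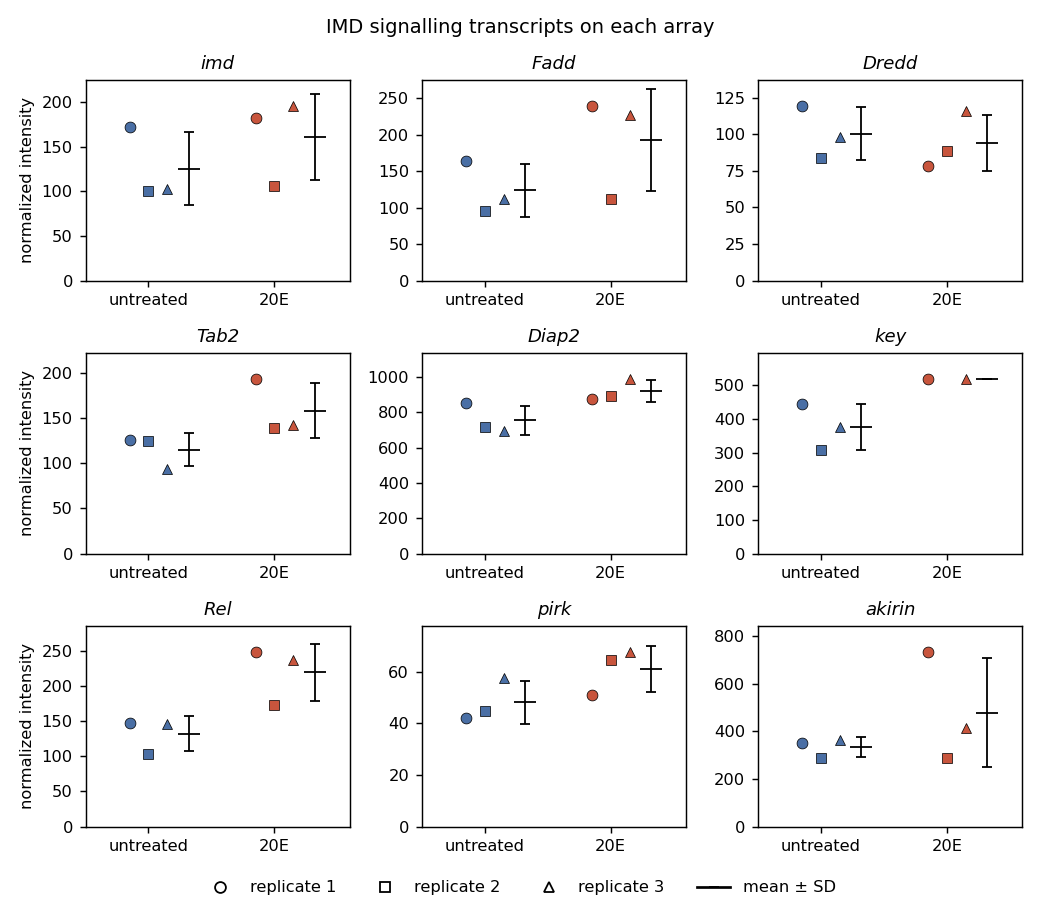
Normalized intensity (vertical axis, linear, from 0) of the 9 IMD signalling transcripts in untreated (blue) and 20E (red) S2* cells, with the symbol giving the replicate and the bar the mean ± SD. The groups do not overlap for Tab2, Diap2, key and Rel. 20E replicate 2 lies among the untreated values for imd, Fadd and Dredd and just below them for akirin.

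The receptor-proximal complex consists of imd, Fadd and Dredd. The adaptor gene imd, which gives the pathway its name, read 172, 100 and 103 in untreated replicates 1, 2 and 3 and 181, 106 and 195 in 20E replicates 1, 2 and 3. The groups overlapped, with untreated replicate 1 close to the higher 20E arrays and 20E replicate 2 close to the lower untreated ones. The means were 125 ± 40.9 and 161 ± 48.0 (SD, n = 3 per group), and the difference of 0.32 ± 0.31 (SE) had an adjusted p of 0.68 by limma. It was 0.17 without 20E replicate 3 and 0.58 without 20E replicate 2, and did not pass in either case.

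Fadd encodes the adaptor that joins imd to the caspase. Its untreated values were 164, 94.8 and 111, and its 20E values were 239, 112 and 227. On 20E replicates 1 and 3 Fadd exceeded every untreated array, while 20E replicate 2 fell within the untreated range. The difference was 0.55 ± 0.34 (SE, limma adjusted p = 0.493, 95% interval −0.25 to 1.35), so neither no change nor a change above 2-fold lies outside the interval.

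Dredd, the caspase that cleaves both Imd and Relish, was the 1 member whose difference lay below 0. It read 119, 83.5 and 98.2 in untreated and 77.9, 88.3 and 115 in 20E samples, and the groups overlapped throughout. The difference of −0.08 ± 0.22 (SE) had an adjusted p of 0.907 by limma. Its sign turned without normalization between arrays (0.032) and without untreated replicate 1 (0.029) or 20E replicate 1 (0.021). The interval, from −0.62 to 0.45, corresponds to ratios of 0.652 to 1.36, which leaves out a 2-fold change either way.

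Downstream of the adaptor complex stand the ubiquitin ligase Diap2, the ubiquitin-binding kinase partner Tab2 and the kinase subunit key. Diap2 read 850, 716 and 694 in untreated and 875, 892 and 989 in 20E samples. The groups did not overlap, but the gap between the highest untreated and the lowest 20E array was small beside the spread within the untreated group. The means were 754 ± 84.6 and 919 ± 61.4 (SD, n = 3 per group), for a difference of 0.28 ± 0.19 (SE, limma adjusted p = 0.525). Its probe set can match several transcripts by its suffix, as can those of akirin and Dredd.

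Tab2 read 126, 125 and 93.7 without hormone and 193, 139 and 142 with it. The highest value was that of 20E replicate 1, and the other 20E arrays lay just above the untreated ones. The difference was 0.41 ± 0.22 (SE, limma adjusted p = 0.432), and it was 0.26 without 20E replicate 1.

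For key, the Drosophila IKKγ, the cell of 20E replicate 2 was empty, so the fit used 3 untreated and 2 20E values. The untreated values were 445, 309 and 377, and the 20E values 519 and 519. Both 20E arrays at hand were above the untreated arrays and nearly equal to each other. The difference of 0.46 ± 0.25 (SE) did not pass the test (limma adjusted p = 0.435, 95% interval −0.15 to 1.06).

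Rel encodes Relish, a compound protein with an NF-κB part and an inhibitory IκB part. Its untreated values were 147, 103 and 146, and its 20E values were 248, 173 and 236. All 20E arrays exceeded all untreated arrays, with 20E replicate 2 the closest to them. The means were 132 ± 24.8 and 219 ± 40.5 (SD, n = 3 per group). The difference was 0.67 ± 0.23 (SE, limma unadjusted p = 0.0254, adjusted p = 0.199), a ratio of 1.59 on the offset scale with a 95% interval from 1.08 to 2.33. On leaving out any 1 array the Rel difference ran from 0.52 to 0.83, with adjusted p between 0.0919 and 0.5, so the transcript missed the threshold each time. The probe sets of other genes with the most similar profile over the 6 arrays, after each was centred on its own mean, were those of CG31523, Liprin-beta and Vha26, with root mean square differences from Rel of 0.050, 0.052 and 0.064 log2 units among 13150 single-gene probe sets with complete values.

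**Figure D2:**
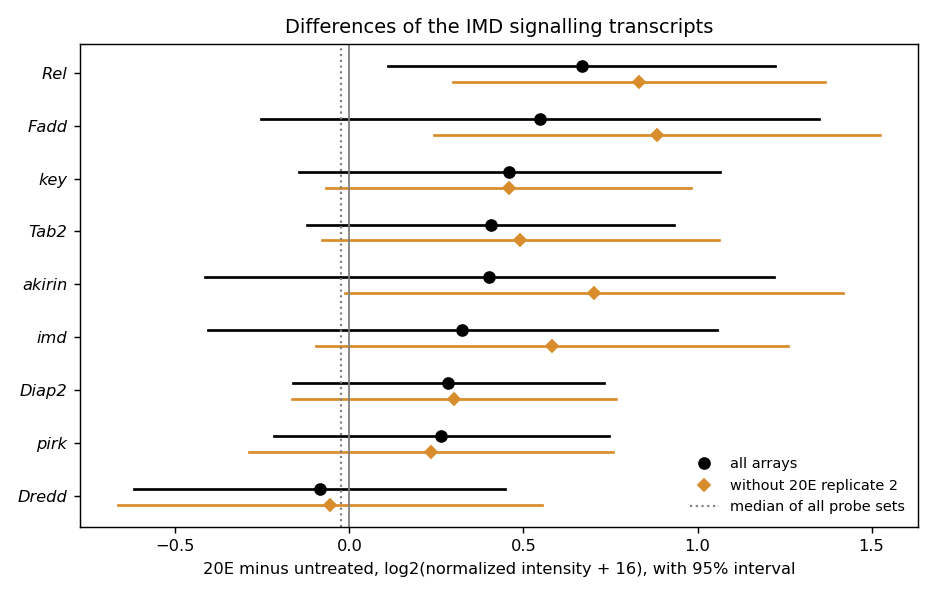
Difference of 20E minus untreated cells on the log2(normalized intensity + 16) scale (horizontal axis) for each IMD signalling transcript, with 95% intervals, from all arrays (black) and without 20E replicate 2 (orange). With all arrays the interval of Rel alone, from 0.11 to 1.22, lies above 0, and without 20E replicate 2 those of Rel and Fadd do.

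The other members regulate the pathway. The gene pirk encodes a feedback inhibitor that binds the receptor and Imd and is itself a target of Relish. It read 42.0, 44.9 and 57.5 in untreated and 50.8, 64.6 and 67.6 in 20E samples. The groups overlapped, and here 20E replicate 1 was the low 20E array. The difference was 0.26 ± 0.20 (SE, limma adjusted p = 0.591). Since pirk was the dimmest of the members relative to the offset, its difference shrank to 0.16 with an offset of 64.

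The nuclear protein encoded by akirin acts with Relish and the Brahma chromatin remodelling complex at a subset of immune promoters. It read 350, 289 and 364 in untreated and 734, 287 and 415 in 20E samples. The 20E values spanned a wide range, from below the lowest untreated array to far above the highest, with a log2 SD of 0.66 against 0.17 in untreated cells. The difference of 0.40 ± 0.34 (SE, limma adjusted p = 0.638) rested on 20E replicate 1 and was 0.050 without it.

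The intervals bound what these arrays could miss. For Dredd, Diap2, pirk and Tab2 the 95% interval lay wholly within 1 log2 unit of 0, as it did for 48.7% of all probe sets. Their upper ratios on the offset scale were 1.36, 1.66, 1.68 and 1.91. For Rel, Fadd, key, imd and akirin the upper ratios ran from 2.08 to 2.55. A rise above 2-fold in these transcripts was thus not resolved at this number of arrays. The bound for Tab2 depended on the processing. Its upper limit was 1.10 log2 units when the offset was lowered to 1, and 0.65 when it was raised to 64. Median centring put that limit at 1.06, and skipping normalization put it at 1.09.

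Several members were high or low on the same arrays, and others were not. Relative to the untreated mean, the median deviation of the members was 0.52 on 20E replicate 1, 0.08 on 20E replicate 2 and 0.39 on 20E replicate 3, beside −0.05, 0.0023 and −0.05 over all probe sets. On 20E replicate 3 all 9 members were above their untreated means, against 45.6% of all probe sets. On 20E replicate 1 it was 8 of 9 against 45.4%, and on 20E replicate 2 it was 4 of 8 against 50.2%. In 5 of the 8 members with complete values (imd, Fadd, Rel, akirin and, narrowly, Tab2) 20E replicate 2 was the lowest 20E array while the other 20E arrays exceeded every untreated array, a pattern held by 13.6% of complete probe sets. Among untreated arrays, replicate 1 was the highest for 6 of the 8 complete members, against 47.0% of complete probe sets. For Tab2 (126 against 125) and Rel (147 against 146) the margin over the next untreated array was narrow. The inhibitor gene pirk ran otherwise, with its lowest value on untreated replicate 1, and Dredd was lowest on 20E replicate 1.

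**Figure D3:**
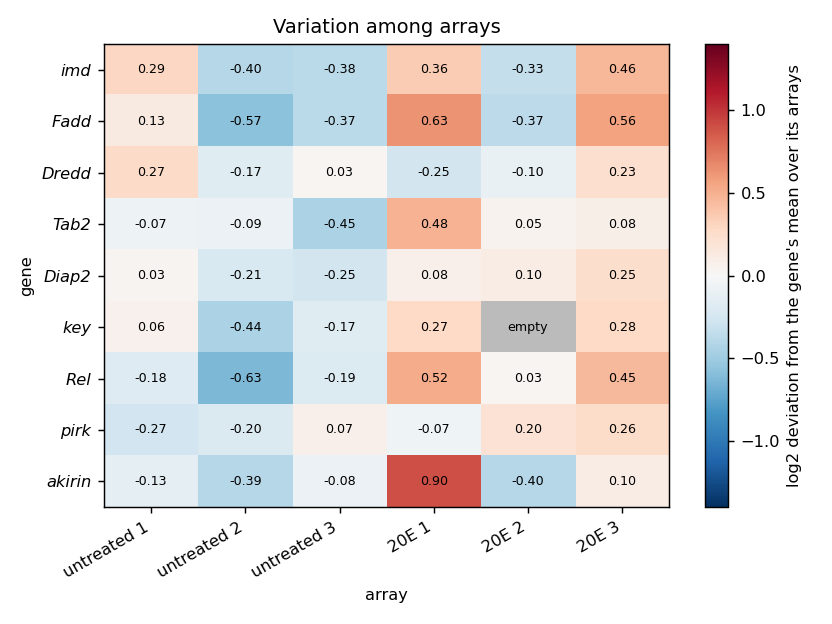
Deviation of each transcript on each array from that gene's own mean over its arrays, in log2 units (colour and printed value, blue below and red above the mean), with genes as rows and arrays as columns. The columns of 20E replicates 1 and 3 are mostly red, imd, Fadd, akirin and, faintly, Dredd are blue on 20E replicate 2, and the cell of key on that array is empty.

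Without 20E replicate 2 the median difference of the members was 0.49, and still none of the 9 passed, against 6.25% of all probe sets in that fit (4.12% called higher). Rel was then at 0.83 ± 0.22 (SE, limma adjusted p = 0.0919) and Fadd at 0.88 ± 0.26 (adjusted p = 0.122). These were the 2 members with an unadjusted p under 0.05 and a higher 20E level, against 11.8% of all probe sets. Leaving out both 20E replicate 2 and untreated replicate 1, a setting added after the data were seen, kept 2 arrays per group. Fadd (1.10, limma adjusted p = 0.0329) and imd (0.82, adjusted p = 0.0477) then passed, and Rel did not (0.92, adjusted p = 0.0679). For Fadd, imd and Rel, untreated replicate 1 was the highest untreated array and 20E replicate 2 the lowest 20E array. Leaving both out thus raises these differences by construction, and the 2 calls are no support for a rise. Over all probe sets 2183 of 18760 were called in that fit, 1350 of them higher, against 957 of 18767 with all arrays.

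The other genes of the pathway were read from the same fit, by the brightest probe set of each gene. Over 7 lists, 33 genes were measured, and 2 rose and none fell, a number near the background of 5.10%. With the dimmest 40% of probe sets left out it was 2 of 29, against 1073 of 11262 probe sets. At an unadjusted p under 0.05 there were 8 by limma, of which the Brahma complex gene Snr1 alone was lower and the rest higher. Of all probe sets, 8.81% were higher and 8.40% lower at that level. Among receptors and peptidoglycan regulators, 1 of 5 measured genes rose. It was PGRP-LA, a membrane protein of the peptidoglycan recognition family, which read 88.8, 72.7 and 81.3 in untreated and 491, 503 and 510 in 20E samples. Its groups lay far apart and its 3 20E values close together, with a difference of 2.42 ± 0.18 (SE, limma adjusted p = 0.000741). Its 95% interval, from 1.99 to 2.84, lay above the intervals of all 9 members below the receptor. The remaining receptor-level genes, PGRP-SC2, PGRP-LE, PGRP-LB and PGRP-LF, differed by −0.24 to 0.20. PGRP-LC, PGRP-SD, PGRP-SC1a and PGRP-SC1b were not analysed here.

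Of the kinase and ubiquitin partners, 1 of 3 measured genes rose. It was sick, reported in Drosophila cells as needed for Relish activation, on a probe set that read 3.47, −13.0 and 4.06 in untreated and 1194, 2746 and 1412 in 20E samples (limma adjusted p = 0.000168). With untreated values near or below 0 the size of its difference is set by the offset, at 9.20 with an offset of 1 and 4.71 with 64. The other 6 probe sets of sick did not pass and differed by −1.66 to −0.15, so the rise is that of 1 probe set. The ubiquitin-conjugating enzyme gene ben differed by 0.82 ± 0.28 (SE, adjusted p = 0.184) and Uev1A, its partner, by −0.11 (adjusted p = 0.857). The IκB kinase catalytic subunit gene ird5 was not analysed here.

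None of 7 negative regulators passed by limma, although the differences of all 7 were above 0, with a median of 0.72, and 2 were higher at an unadjusted p under 0.05. Of all probe sets, 47.7% were above 0 and 8.81% higher at that level. The lowest p was that of casp, a ubiquitin-binding inhibitor of Relish cleavage. It read 101, 67.9 and 104 in untreated and 143, 159 and 180 in 20E samples. The groups did not overlap, and the difference was 0.74 ± 0.22 (SE, limma adjusted p = 0.132). None of the 6 genes of the JNK branch below Tak1 passed by limma, and 2 were higher at an unadjusted p under 0.05, against the same 8.81%. Mkk4, a kinase of that branch, came closest, with 130, 94.2 and 112 in untreated and 396, 197 and 253 in 20E samples. These groups did not overlap either, and the difference was 1.17 ± 0.29 (SE, adjusted p = 0.0731). Without 20E replicate 2 Mkk4 passed (1.41, limma adjusted p = 0.0396), as did the deubiquitinase gene CYLD of the negative regulators (1.19, adjusted p = 0.0348) and ben (1.05, adjusted p = 0.0496). In that fit 5 of the 33 pathway genes were called, all higher, against 4.12% of all probe sets called higher. With all arrays the median of the JNK branch was 0.18.

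On the nuclear side, 1 of the 5 measured Brahma complex genes that act with akirin had a difference above 0, and none passed by limma. Snr1, a core subunit, was the 1 gene of this list with an unadjusted p under 0.05, with 569, 434 and 467 in untreated and 273, 303 and 275 in 20E samples. Here the 20E arrays were all below the untreated ones, opposite to the direction of Rel and key. The difference was −0.75 ± 0.19 (SE, limma adjusted p = 0.0882), and with an offset of 64 it passed (adjusted p = 0.0302). Of the NF-κB and IκB genes of the Toll pathway, dl, Dif and cact, 0 of 3 passed by limma and 0 had an unadjusted p under 0.05, with a median difference of 0.13. By the brightest probe sets the lowest p was that of Dif, a Toll pathway NF-κB factor, at a difference of 0.45 ± 0.34 (SE, limma adjusted p = 0.586). A dimmer probe set of dl differed by 0.64 ± 0.41 (SE, limma adjusted p = 0.51).

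Of 12 Relish target peptide genes, 4 were measured, and 0 passed by limma and 0 had an unadjusted p under 0.05, with differences from −0.02 to 0.26 and a median of 0.16. The cecropin gene CecB read 55.0, 62.7 and 61.9 in untreated and 66.9, 63.97 and 97.3 in 20E samples. The groups did not overlap, by a narrow margin, and the difference was 0.26 ± 0.21 (SE, limma adjusted p = 0.613). DptB, a diptericin gene, read 112, 200 and 159 and then 83.4, 359 and 148, with 20E replicate 2 the highest array, where most core members were low among the 20E arrays.

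**Figure D4:**
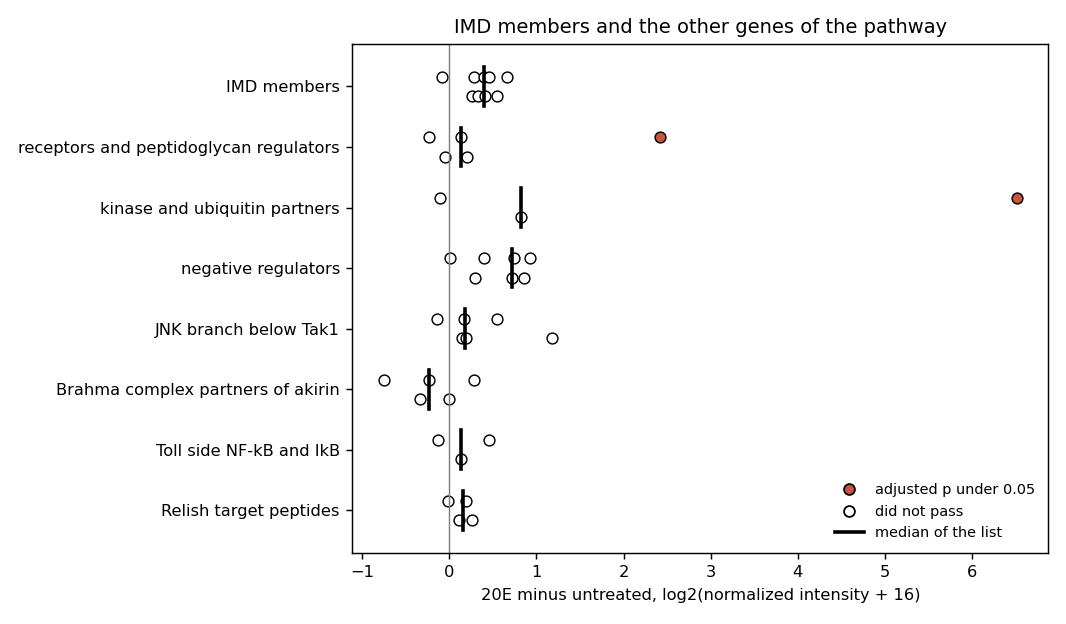
Difference of 20E minus untreated cells on the log2(normalized intensity + 16) scale (horizontal axis) for the IMD signalling members and 7 lists of other pathway genes, 1 point per gene, filled where the adjusted p was under 0.05, with a bar at the median of each list. The filled points are PGRP-LA at 2.42 and sick, whose position depends on the offset because its untreated values lie near or below 0, and the members lie between −0.08 and 0.67.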

How the data were processed

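Total RNA of 6 S2* samples was measured on Affymetrix Drosophila arrays, 1 per sample. Per the labels, RNA was extracted with Trizol. The authors deposited intensities on a linear scale, 1 value for each probe set on each array. How these were summarised, background-corrected and scaled is not stated in the labels or the file. Median deposited intensities were 43.2 to 56.4, with 9 to 456 empty cells per array. Array medians differed by up to 0.29 in log2, so intensities were quantile normalized, floored at 0, and log2(intensity + 16) was taken. Quoted intensities precede the floor. Quantile normalization removes any shift common to most transcripts, and the offset shrinks the differences of dim ones.

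Groups were compared with limma 3.58.1 in R 4.3.3 (lmFit, eBayes), tested on simulated data, over all probe sets, with a threshold of 0.05 after Benjamini-Hochberg adjustment. Left-out arrays were dropped before normalization. Where an empty cell or a left-out array left 1 value in a group, its spread was taken to equal that of the other group. Names came from the platform annotation, updated by gene number through RefSeq's Release 6 plus ISO1 MT gene table. Of the probe sets, 13647 had 1 gene, 402 several and 4720 none. The members and lists were chosen with earlier results of these data known. Every member is named, and of each other list up to 4 called genes or, with none, the gene with the lowest p, plus genes named after their values were seen (ben, Uev1A, CYLD, DptB). The few arrays limit precision. Alternatives were offsets of 1 and 64, no normalization, median centring, leaving out the dimmest 40% of probe sets, other variance models, a replicate block, leaving out multi-transcript probe sets (suffix _s_at, _x_at or _a_at), and leaving out arrays.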

Additional observations from a re-analysis of the deposited data

How the results depend on the processing

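No member passed under any of the 15 alternatives that changed the processing or left out 1 array. With untreated replicate 1 and 20E replicate 2 both left out, a setting added later, 2 did, imd and Fadd. Those arrays held the highest untreated and the lowest 20E value of both genes. The median member difference ran from 0.30 to 0.49 on leaving out 1 array and from 0.31 to 0.59 under the other settings. Without normalization between arrays, Rel, key and Tab2 had an unadjusted limma p under 0.05, and with median centring Rel and key did. Over all probe sets 3284 and 3019 of 18767 did, in either direction. No member did without untreated replicate 2, 20E replicate 1 or 20E replicate 3. Every member except Dredd kept its sign under each alternative that measured it. Dredd was at 0.032 without normalization between arrays, from −0.21 to 0.029 on leaving out 1 array, and at 0.061 without both arrays; the cause was not tested. The calls over all probe sets numbered 567 with an offset of 1, 397 without variance moderation, 629 with multi-transcript probe sets left out (fewer were tested), 326 to 1173 on leaving out 1 array and 2183 without both arrays. Calls in the other pathway lists fell from 2 to 1 with multi-transcript probe sets left out, PGRP-LA among them. They numbered 2 to 5 on leaving out 1 array, with ben, CYLD and Mkk4 added without 20E replicate 2, and 5 without both arrays, with CYLD, Mkk4 and trbd added. The labels do not say what a replicate number shares. Deviations of same-numbered arrays correlated over probe sets at 0.23, 0.37 and −0.02, and those of differently numbered arrays at −0.39 to 0.33. These values do not settle whether the numbers pair the samples. With the replicate block 954 probe sets, 0 members and 3 pathway genes were called, Mkk4 being added (adjusted p = 0.0464), and the median member difference was 0.33. The number of arrays sets the width of the intervals.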

Other observations

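Tak1 has 2 relatives of similar name on the arrays, Takl1 and Takl2, chosen for naming after the files were opened. Takl1 read 55.9, 113 and 79.3 in untreated and 44.8, 100 and 61.7 in 20E samples, with replicate 2 the highest in both groups, the reverse of imd. Its difference was −0.23 ± 0.33 (SE, limma adjusted p = 0.805). Takl2 lay between 1.76 and 18.3 on all arrays, with a difference of −0.08 ± 0.27 (SE, adjusted p = 0.927).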
